A study of Rhipicephalus microplus with 8 samples.

Results

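The transcripts described here are 118 sequences of the cattle tick Rhipicephalus microplus that stood lower in feeding nymphs than in feeding larvae on every array. They were chosen by their measured values: the lowest of the 4 larva arrays had to exceed the highest of the 4 nymph arrays by at least 1.5 on the log2 scale. Of 13459 array features, 901 passed this gap. A feature became a member only where its mean stage difference equalled exactly 1 fold change in the authors' deposited table of the stage comparison, which supplied the probe name. That left the 118 members among 6516 features joined in the same way. Since the stage contrast chose the members, all stage values are given as a description and none was tested.

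The cattle tick feeds on a single host animal. Larvae attach to the skin, take blood, moult to nymphs in place, and nymphs feed again before the moult to adults. Each feeding period is known to call on secreted saliva proteins, on enzymes that digest blood, and on a cuticle that grows and is then replaced, so that transcript levels turn over from stage to stage.

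Nymphs were whole bodies of mixed sex, collected on day 7 after infestation, and larvae were whole bodies of mixed sex, collected on day 4. All were of the Mozambique strain and fed on Holstein-Friesian cattle. Each stage had 2 biological replicates, with 2 arrays per replicate, giving 8 arrays in all. RNA of the sample was labelled with Cy5 on every array and competed with a Cy3-labelled pool, made of whole ticks of several days and of adult female tissues. The authors' comparison tables add 3 groups coded G, O and S. The pool's label names tissues taken on day 20, but no label spells out the codes. If they are single tissues, whole bodies are being set against parts of a body, and fewer cells of a type cannot be told apart from less RNA per cell. Whether a whole-body sample holds the cell types of a tissue could not be checked, since the probe names carry no gene.

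A level is given here as the log2 ratio of a sample to the pool, so that 0 means as much as in the pool and 1 means 2-fold more. The pool itself contained day 4 and day 7 ticks, so a transcript found in larvae alone can exceed the pool only by as much as larval RNA was diluted in it. The mean level of G, O or S was obtained by subtracting the deposited fold change of larvae over that group from the larva mean, and comes without a replicate spread. Going through nymphs in place of larvae gave the same level to within 1e-09. Arrays, not reads, were counted, and the small number of arrays limits the precision. Signal over background is unknown, so a very low ratio may be a floor.

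Looked up in the gene table of the USDA_Rmic assembly, 0 of the 118 member names were found, and none carries a gene word, so no member is given a role, a position or a sequence. Of the 118, 99 are named as contigs, which is 83.9%, against 72.8% of the 6516 joined features. Another 5 names begin with TC, and 14 are of other forms such as CK or CV followed by a number.

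Contig2248 and CK174909 had the widest gaps between the stages. Contig2248 read -3.42, -3.44, -3.74 and -3.68 on the nymph arrays, against 3.38, 3.22, 2.82 and 2.86 on the larva arrays, the 2 arrays of replicate 1 first. CK174909 read -2.65, -2.16, -2.48 and -2.07 on the nymph arrays, against 2.88, 2.78, 2.54 and 2.95 on the larva arrays. Both transcripts were thus well below the pool in all nymphs and well above it in all larvae, and the replicates of each stage lay close together. Contig2248 averaged -3.57 ± 0.20 in nymphs and 3.07 ± 0.33 in larvae, and CK174909 averaged -2.34 ± 0.09 in nymphs and 2.79 ± 0.06 in larvae (SD, n = 2 biological replicates per stage). This made Contig2248 99.7-fold and CK174909 35.0-fold lower in nymphs.

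Over all 118 members, the level in nymphs was between 3.39-fold and 99.7-fold lower than in larvae, with a median of 9.09-fold. Their median level was -1.38 in nymphs (quartiles -1.97 and -0.81) and 2.18 in larvae (quartiles 1.36 and 2.51). For 105 members the nymphs lay below the pool and the larvae above it, as for 16.0% of the joined features. Both stages lay above the pool for 6 members and below it for 7, or 5.08% and 5.93%, against 31.3% and 39.0% of the joined features. All 118 were, in the authors' deposited table, lower in nymphs than in larvae past an adjusted p of 0.05, with adjusted p of at most 3.91e-06, as were 22.7% of all 10695 probes with a deposited value. That contrast chose the members, and the count only restates the choice.

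**Figure D1:**
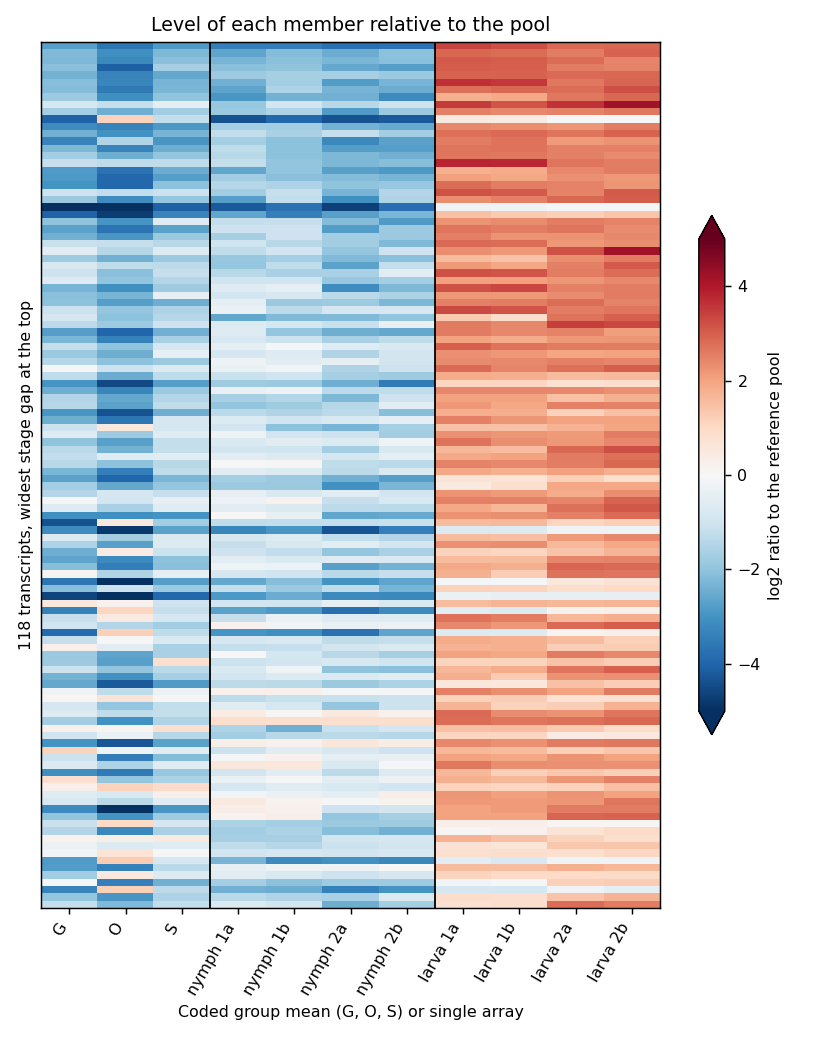
Level of each of the 118 members (rows, widest stage gap at the top) as the log2 ratio to the reference pool, in the means of groups G, O and S and on the single nymph and larva arrays, where the digit is the biological replicate and a and b its 2 arrays. Red is above the pool and blue below; colours end at 5 and -5, and the larva columns are red for all but a few rows while most of the others are blue.

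Replicates of a stage differed less than the stages did, in part because the rule demands it. The median SD between the 2 biological replicates was 0.28 in nymphs and 0.28 in larvae over the members, against 0.21 in nymphs and 0.14 in larvae over the 6516 joined features. Nymph replicate 2 was lower than nymph replicate 1 for 88 of the 118 members, by a median difference of -0.35, against -0.05 over the joined features. Larva replicate 2 was higher than larva replicate 1 for 68 members, with a median difference of 0.09. The SD reached 1 or more for 5 members in nymphs and for 4 in larvae. Contig7461 had the widest nymph spread, at 0.01 and -0.38 in replicate 1 and -2.61 and -2.51 in replicate 2, while its larva arrays read 2.24, 2.33, 2.51 and 2.83. Its nymph replicates therefore differed by more than 2 on the log2 scale, and both lay below all larva arrays.

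The threshold cut through a continuous range. Contig272 and Contig5310 were the members just inside it, with gaps of 1.52 and 1.51, and CK177202 and Contig7229 the joined features just outside it, with gaps slightly below it. Contig272 read -1.34, -1.51, -1.62 and -0.67 in nymphs, against 0.88, 0.85, 1.42 and 1.76 in larvae. Contig5310 read -0.73, -0.90, -2.43 and -1.70 in nymphs, against 0.77, 0.88, 2.81 and 2.56 in larvae. Both stages of Contig5310 differed widely between replicates, with SDs of 0.88 in nymphs and 1.31 in larvae. CK177202 averaged -0.97 in nymphs and 1.21 in larvae. Contig7229 averaged 1.76 in nymphs and 3.54 in larvae, above the pool in both stages.

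The main question for the members was where groups G, O and S stood relative to the stages. Most members were low in all of them. The median level was -1.76 in G, -2.41 in O and -1.45 in S, beside -1.38 in nymphs and 2.18 in larvae. Larvae were the highest of the 5 groups for 112 members, or 94.9%, against 21.3% of the joined features. O was the highest for the other 6, or 5.08%, against 29.1%. For 85 members, larvae were the sole group above the pool, a pattern met by 320 of the 6516 joined features, or 4.91%. The larva arrays that set this pattern are those the rule used, so the excess is in part fixed by the choice.

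**Figure D2:**
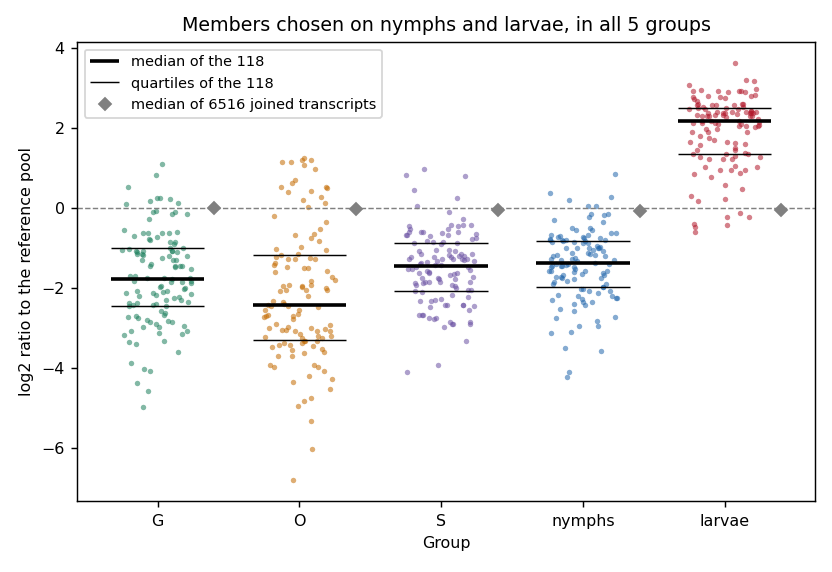
Levels of the 118 members in groups G, O and S, in nymphs and in larvae, as the log2 ratio to the reference pool; each point is the group mean of 1 member, thick bars are medians, thin bars quartiles, and grey diamonds the medians of the 6516 joined transcripts. The medians of G, O, S and nymphs lie between -2.41 and -1.38 and that of larvae at 2.18, while all 5 medians over the joined transcripts are near 0.

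G was lower than larvae for all 118 members past the adjusted p of 0.05 in the authors' deposited tables, against 28.2% of all probes. O was lower than larvae for 110 of them, against 38.1% of all probes in the authors' deposited tables, and S for 114, against 25.5%. O was higher than larvae for 6 members, against 33.4% of all probes in the authors' deposited tables. G and S were higher than larvae for 0 members each, against 31.9% and 26.4% of all probes in the authors' deposited tables. The authors' deposited tables placed 108 members lower in nymphs and in all of G, O and S than in larvae, against 9.52% of all probes, and 101 members also met a 2-fold minimum in each of these comparisons, against 3.81%. The coded groups are set here against the same larva arrays that the rule used. The deposited p-values may also count both arrays of a biological replicate as independent, which the tables do not say.

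The distance from larvae to the next highest group ranged widely. The median distance was 2.89 in log2 units, and it reached 2 for 88 members and 4 for 24, against 1.52% and 0.368% of the joined features. The next group was nymphs for 48 members, and every distance starts from the larva arrays that the rule used. This excess is therefore in part fixed by the choice. Contig2248 and Contig5919 were lowest in S relative to larvae. Contig5919 stood at -2.13 in G, -3.25 in O, -2.32 in S, -2.30 in nymphs and 3.18 in larvae, so that its larva level was 5.31 above the next group. Contig2248 stood at -2.73 in G, -3.62 in O and -2.84 in S, with 5.80 between larvae and the next group. In the authors' deposited tables, larvae were 55.6-fold above G, 103-fold above O and 60.1-fold above S for Contig2248. Contig5544, also among the lowest in G relative to larvae, stood at -3.33 in G, -1.49 in O, -2.90 in S, -2.41 in nymphs and 2.41 in larvae.

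**Figure D3:**
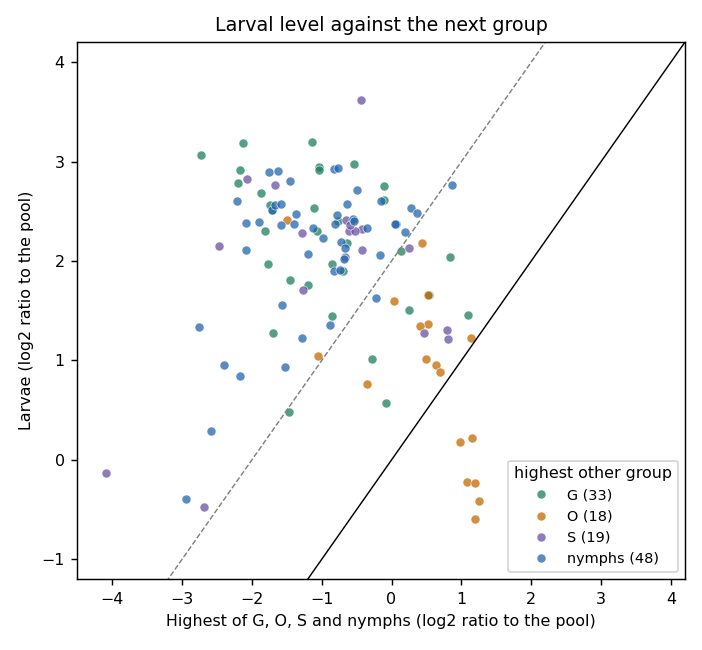
Larval level of each member (vertical) against the highest level among G, O, S and nymphs (horizontal), both as log2 ratios to the pool, coloured by which group that is; the legend gives the number of members. On the solid line both are equal and on the dashed line larvae are 2 higher; the 6 points right of the solid line all have O as the highest other group, and nymphs are that group for 48 members.

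In 6 members O was the highest of all 5 groups. Contig443 and Contig2246 were named for the highest differences of O from larvae, and Contig97 and Contig2240 for the highest from nymphs. Contig6191 and Contig1954 were added after their values were seen. Across the 6, the level ranged from 0.98 to 1.26 in O, from -1.32 to -0.82 in S, from -4.06 to -1.11 in G, from -4.21 to -1.73 in nymphs and from -0.59 to 0.22 in larvae. They were thus low in nymphs and G, closer to the pool in S and larvae, and above it in O. These 6 are among the 12 members in which O was at least 2-fold above both G and S; Contig190A and Contig1663, the second named after its values were seen, are among the others. Contig1663 stood at -2.44 in G, 0.41 in O, -1.08 in S, -1.46 in nymphs and 1.34 in larvae. Contig97 read -4.34, -3.93, -4.36 and -4.21 on the nymph arrays, against 0.47, 0.41, -0.01 and 0.02 on the larva arrays. Contig2240 read -2.93, -3.08, -3.74 and -2.64 on the nymph arrays, against -0.67, -0.64, 0.13 and 0.27 on the larva arrays. In both, nymph and larva arrays lay far apart, but larvae did not stand out from the pool.

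Contig443 read -2.39, -2.49, -3.38 and -2.99 in nymphs, against -0.82, -0.87, -0.19 and -0.50 in larvae. Contig2246 read -2.33, -3.18, -3.04 and -3.21 in nymphs, against -0.51, -0.77, -0.19 and -0.18 in larvae. In both, every array of either stage lay below the pool. O was, in the authors' deposited tables, 3.47-fold above larvae for Contig443 (adjusted p = 2.87e-07) and 3.18-fold above larvae for Contig2246 (adjusted p = 6.56e-07). For Contig97, O was 1.90-fold above larvae and 41.0-fold above nymphs in the authors' deposited tables, with adjusted p of 0.00111 and 1.19e-13. Contig97 and Contig2240 also had the widest range over the coded groups of all members, at 5.21 and 5.07 on the log2 scale.

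Another 4 members were not lower in every coded group than in larvae past the authors' threshold. Contig3361 stood at 0.26 in G, 1.14 in O, 0.97 in S, -0.79 in nymphs and 1.23 in larvae. Its larva level was, in the authors' deposited tables, 1.06-fold that of O (adjusted p = 0.717) and 1.19-fold that of S (adjusted p = 0.342). Nymphs were its one group below the pool. CV441316 stood at -1.83 in G, -2.71 in O, 0.81 in S, -0.95 in nymphs and 1.22 in larvae, so that S and larvae were its high groups. For CV441316 larvae were 1.32-fold above S in the authors' deposited table (adjusted p = 0.154). Contig2068 stood at 0.23 in G, 0.12 in O, 0.79 in S, -1.48 in nymphs and 1.31 in larvae, with an adjusted p of 0.0905 for larvae over S in the authors' deposited table. Contig8778, named after its values were seen, stood at -0.15 in G, 0.69 in O, -0.10 in S, -0.88 in nymphs and 0.88 in larvae, with an adjusted p of 0.229 for larvae over O in the authors' deposited table.

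G came closest to larvae for CV456307 and Contig8280. CV456307 read -1.07, -0.53, -0.79 and -1.02 in nymphs, against 1.65, 1.59, 1.19 and 1.38 in larvae, and its level was 1.10 in G, -0.21 in O and -0.59 in S. Contig8280 read -1.68, -2.06, -1.78 and -1.79 in nymphs, against -0.15, -0.04, 1.20 and 1.28 in larvae, and its level was -0.08 in G, -3.42 in O and -2.41 in S. The larva replicates of Contig8280 lay on either side of the pool. G was 3.86-fold above nymphs in the authors' deposited tables for CV456307 and 3.36-fold above nymphs for Contig8280, with adjusted p of 5.21e-10 and 9.59e-06.

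**Figure D4:**
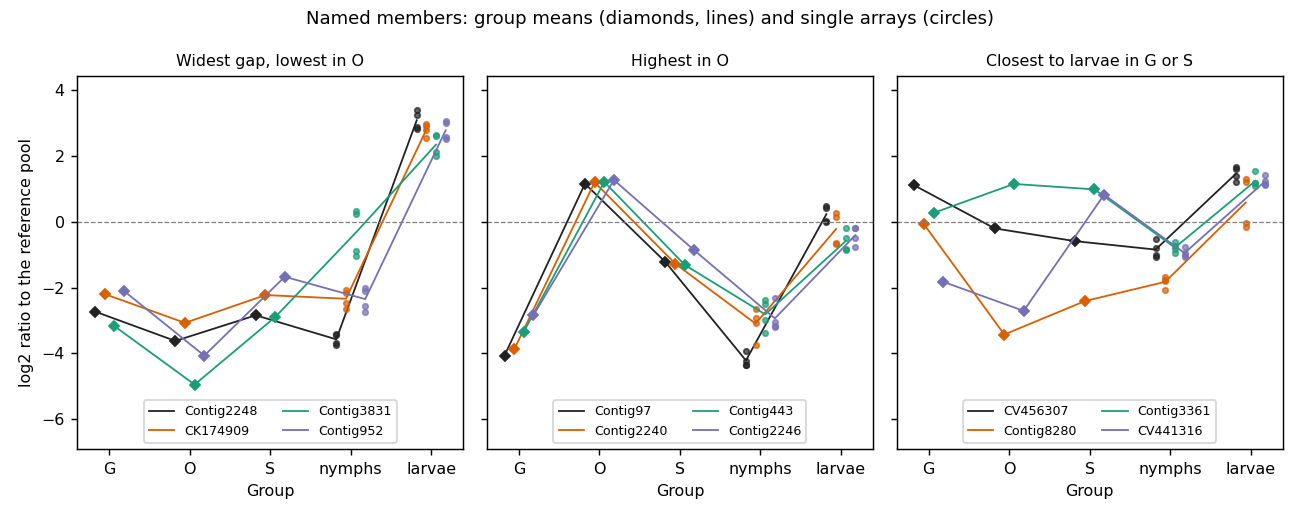
Levels of 12 named members as log2 ratios to the reference pool in G, O, S, nymphs and larvae; diamonds are group means of G, O and S, circles are the 4 arrays of a stage, and lines join group means. The left panel shows members high in larvae alone, such as Contig2248 at 3.07; the middle panel members highest in O, between 1.14 and 1.26; the right panel members whose level in G or S comes close to that in larvae.

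Relative to nymphs, the coded groups lay on both sides. The median difference from nymphs over the members was -0.37 for G, -1.10 for O and -0.06 for S, against 0.05, -0.10 and 0.01 over all 10695 probes. Nymphs lay within the range of the 3 coded groups for 44.1% of the members (52), against 41.8% of the joined features. They lay above all 3 for 40.7% (48), against 28.4%, and below all 3 for 15.3% (18), against 29.8%. The nymph arrays also served the rule, which favours low nymph values.

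In the authors' deposited tables G was lower than nymphs for 51 members and higher for 19, against 25.7% and 30.3% of all probes. O was lower than nymphs for 73 members and higher for 24, against 38.5% and 34.7% of all probes in the authors' deposited tables. S was lower than nymphs for 32 members and higher for 23, against 23.6% and 25.7% of all probes in the authors' deposited tables. For S these shares, 27.1% lower and 19.5% higher, were near those of all probes.

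All 3 coded groups were lower than nymphs for 26 members in the authors' deposited tables, against 12.9% of all probes, and all 3 were higher for 7, against 12.1%. None of G, O and S differed from nymphs past the threshold for 13 members in the authors' deposited tables, against 13.0% of all probes. O was the lowest of all 5 groups for 85 members, or 72.0%, against 37.0% of the joined features. Nymphs were the lowest for 18, or 15.3%, near the 17.6% of the joined features.

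Contig1467 and Contig3831 had the lowest differences of O and of S from nymphs, and Contig1467 and Contig190A the lowest of G. Contig1467 read 0.31, 0.23, 0.56 and 0.37 on the nymph arrays, against 2.40, 2.30, 2.59 and 2.65 on the larva arrays, and stood at -2.97 in G, -4.27 in O and -2.66 in S. It was thus above the pool in both stages and far below it in all coded groups. Contig3831 read 0.33, 0.23, -1.03 and -0.91 on the nymph arrays, against 2.00, 2.11, 2.61 and 2.61 on the larva arrays, and stood at -3.16 in G, -4.94 in O and -2.90 in S. Its nymph replicates lay on either side of the pool. O was, in the authors' deposited tables, 24.9-fold lower than nymphs for Contig1467 and 24.2-fold lower for Contig3831, with adjusted p of 1.19e-15 and 1.11e-10. Contig3831 also had the largest distance from larvae down to O of all members, 155-fold in the authors' deposited table, followed by Contig952, which stood at -2.10 in G, -4.07 in O, -1.67 in S, -2.35 in nymphs and 2.77 in larvae.

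Contig190A was above the pool in O and far below it in G. It read -1.26, -1.23, -1.19 and -1.13 on the nymph arrays, against 1.60, 1.61, 1.09 and 1.18 on the larva arrays, and stood at -4.36 in G, 0.53 in O and -1.75 in S. G was 8.94-fold lower than nymphs for this probe in the authors' deposited tables and O was 3.31-fold higher than nymphs, with adjusted p of 1.14e-11 and 2.44e-08. The partner probe Contig190B, named for its number and not a member, differed from it in O: its log2 fold change of O over nymphs was -1.87 and that of larvae over O was 2.80 in the authors' deposited tables, where Contig190A had 1.73 and 0.84.

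Differences among G, O and S use no nymph or larva array, apart from the larva mean that cancels. The members were still chosen on the stages, to which levels in O are related. Over the 6516 joined features, Spearman's rho between O and larvae was -0.37, against 0.087 for G and 0.18 for S. Between O and nymphs it was -0.40, against 0.29 for G and 0.27 for S. Values over all probes are therefore not a baseline free of the choice. The members tended to be low in O. Over the members the median difference was 0.85 for G minus O (quartiles 0.28 and 1.15), 0.93 for S minus O (0.13 and 1.37) and 0.17 for S minus G (-0.14 and 0.58). Over all 10695 probes the medians were 0.18, 0.12 and -0.03. O was the lowest of the 3 for 91 members, or 77.1%, against 46.5% of the 6516 joined features. Samples of G, O and S were not analysed here, so these differences have no replicate error and were not tested.

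By a 2-fold cut-off with no p, G exceeded O for 44 members, against 17.9% of all probes, and was below it for 14, against 15.4%. S exceeded O for 52 members, against 17.6% of all probes, and was below it for 15, against 14.1%. S exceeded G for 16 members, against 10.3% of all probes, and was below it for 6, against 7.30%. As shares of the members these are 37.3%, 11.9%, 44.1%, 12.7%, 13.6% and 5.08% in the order given.

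O was at least 2-fold below both G and S for 33 members, against 9.00% of all probes, and at least 2-fold above both for 12, against 10.4%. G was at least 2-fold above both others for 4 members, against 5.33% of all probes, and below both for 8, against 4.22%. S was at least 2-fold above both others for 8 members, against 5.33% of all probes, and below both for 2, against 0.982%. As shares of the members these are 28.0%, 10.2%, 3.39%, 6.78%, 6.78% and 1.69% in the order given. Apart from the low level in O, these counts were small and their shares lay closer to those of all probes. The range over the 3 groups was under 1 for 38 members, or 32.2%, against 49.6% of the joined features. It was at least 2 for 25 members, or 21.2%, against 15.1%. Contig7461, at -3.08 in G, -3.08 in O and -2.97 in S, and Contig3173, at -1.14 in G, -1.27 in O and -1.26 in S, had the narrowest ranges.

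**Figure D5:**
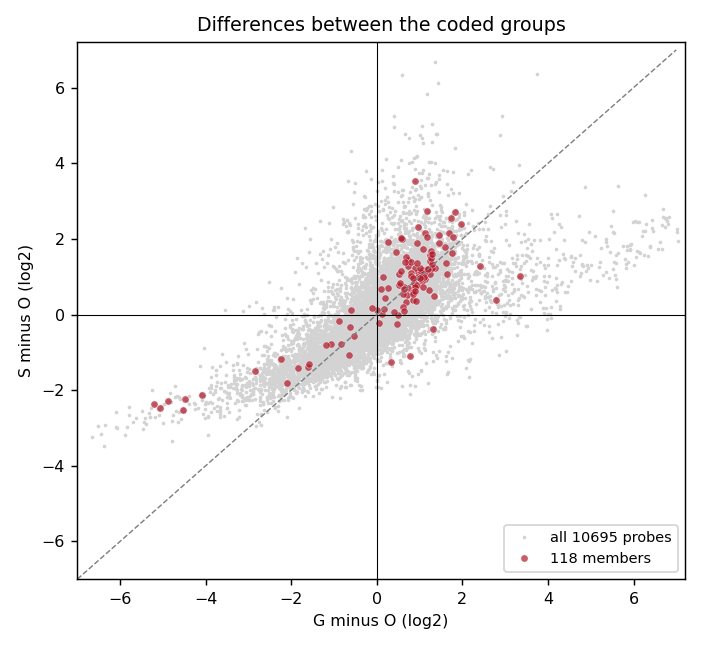
Difference of S minus O (vertical) against G minus O (horizontal) on the log2 scale for the 118 members (red) and all 10695 probes (grey); on the dashed line G and S are equal. Most members lie in the upper right part, where O is the lowest, with medians of 0.85 and 0.93, and a few reach far to the lower left, down to -5.21 on the horizontal axis.

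The low level in O was shared by the opposite set. Applying the same gap with the stages exchanged gave 100 transcripts high in nymphs and low in larvae. O was the lowest coded group for 91 of the 118 members and for 79 of these 100. The median difference of S minus O was 0.93 over the members and 2.09 over the opposite set, and that of G minus O was 0.85 over the members and 0.96 over the opposite set. The range over the 3 groups had a median of 1.21 over the members and 2.43 over the opposite set. For 112 of the 118 members the high stage was the highest of all 5 groups, against 72 of the 100. Over the joined features, larvae were the highest for 21.3% and nymphs for 17.1%. In the authors' deposited tables, 108 of the 118 members were lower in every other group than in larvae, against 9.52% of all probes. There, 67 of the 100 were lower in every other group than in nymphs, against 6.66% of all probes. Each count includes the stage comparison that chose the set, so the excess is in part fixed by the choice. These differences between the sets were not tested.

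Across the 118 members, levels in S followed those in O (Pearson's r = 0.72, Spearman's rho = 0.74) and in G (r = 0.68, rho = 0.68). Levels in nymphs followed those in G (r = 0.54, rho = 0.48) and in S (r = 0.45, rho = 0.47), and less those in O (r = 0.16, rho = 0.24). Between G and O, r was 0.48 and rho 0.57. Levels in larvae gave r = 0.26 and rho = 0.11 with G, r = -0.19 and rho = -0.17 with O, r = 0.02 and rho = -0.10 with S, and r = 0.41 and rho = 0.17 with nymphs. Over the 6516 joined features, r was 0.40 and rho 0.0082 between O and S, and r was 0.24 and rho 0.068 between G and O. There, r was 0.41 and rho 0.40 between G and S, and r was -0.20 and rho -0.40 between O and nymphs. For nymphs over these features, r was 0.36 and rho 0.29 with G, 0.28 and 0.27 with S, and 0.56 and 0.53 with larvae. For larvae, r was 0.21 and rho 0.087 with G, -0.17 and -0.37 with O, and 0.17 and 0.18 with S. These are correlations across transcripts, which are not independent replicates. All levels share the pool as denominator, and the members were chosen on the stages.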

How the data were processed

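The value table as deposited by the authors holds 1 log2 ratio of sample over reference pool per feature and array, with 0 missing values. Log2 fold changes, signed fold values and adjusted p-values of 7 comparisons come from the authors' deposited tables, per the file headers; they cover 10695 of 13459 probes. Limma is the one tool in the submitters' processing notes. How arrays were scanned, corrected for background and normalised was not stated in what was used here.

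Features were joined to probes where the plain mean of the larva arrays minus that of the nymph arrays equalled exactly 1 deposited log2 fold change within 1.2e-09. The 2 arrays of a biological replicate were averaged before SDs were taken. The labels do not say whether replicates came from separate cattle. The code for the rule and join was checked on simulated data with planted rows, which says nothing about the members found here. Named members were the 2 widest and, for each coded group, the 2 highest and 2 lowest differences from each stage, the 2 widest and narrowest ranges, and those beside the threshold; exceptions are stated. Members, rule and counts were chosen with earlier results of these data known. Keyword gene lists could not be used, since no probe is paired with a gene. No test was run here; calls at an adjusted p of 0.05 are the authors'. Python 3.11.15, pandas 2.3.3 and scipy 1.17.1 were used.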

Additional observations from a re-analysis of the deposited data

How the results depend on the processing

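The number of members followed the rule: 187 with a gap of at least 1, 77 with at least 2, 90 with each array centred on its median, and between 147 and 153 when the rule was applied without 1 biological replicate. A join within 1e-10 left 36, since the deposited values are rounded more coarsely than that. The array medians that centring removed ran from -0.07 to -0.05 for nymphs and from 0.20 to 0.32 for larvae. They were taken over all 13459 features. Over the 6516 joined features, the median level was -0.08 in nymphs and -0.05 in larvae. Of 161 values recomputed under alternatives, 145 stayed within a set band. The band was the 95% binomial interval for a share, 1.5-fold for a count and the replicate SD of 0.28 for a median. The binomial interval treats transcripts as independent, and the sets of members overlap, so it does not measure replicate error. Counts and shares cannot change sign, and of the medians 0 did. With a gap of at least 2, the share of members lower than in larvae was 98.7% for O, 100% for S and 98.7% for all groups jointly, and the shares higher in G and in O than in nymphs were each 9.09%. Without 1 replicate, the share lower in G than in larvae was between 96.6% and 99.3%. Under an adjusted p of 0.01, 32.2% were lower in G than in nymphs. With 2-fold required as well, 96.6% were lower in G than in larvae, 20.3% lower in G than in nymphs, 9.32% higher in S than in nymphs and 11.9% lower in S than in nymphs, as fewer differences pass. The matching shares of all probes under these stricter cut-offs are not given here, so these values show no excess or deficit against them. Without the members highest in O, chosen after seeing the data, 98.2% were lower in O than in larvae and 96.4% lower in all other groups. No paired analysis was possible because the stage contrast chose the members, so that no result here comes from a test, although both stages hold replicates 1 and 2.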

Other observations

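Both members whose name ends in A have a partner probe named with B and the same contig number. The files do not say what A and B mark. Contig190B was lower in nymphs than in larvae as Contig190A was, at 0.71 in nymphs and 1.64 in larvae, and its gap was 0.41, but its O level lay below nymphs, where that of Contig190A lay above. Contig195B had a deposited log2 fold change of larvae over nymphs of -1.09 in the authors' deposited table (adjusted p = 0.00128), opposite in sign to Contig195A. The deposited fold changes of larvae over G, O and S were -1.04, -1.55 and -1.58 for Contig195B, where all coded groups were lower than larvae for Contig195A.

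Of the features past the gap, 783 are not members. Among these, 55 matched a deposited fold change through fewer arrays, and their median level was -0.97 in nymphs and 2.34 in larvae. The other 728 had no unique match. Their median level was -0.14 in nymphs (quartiles -0.35 and 0.05) and 2.83 in larvae (2.50 and 3.11). These 728 features thus lay near the pool in nymphs, where the members had a median of -1.38. The difference was not tested.

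Contig5943, Contig1995 and Contig2294, named after their values were seen, had the lowest levels in O of all members, at -6.80, -6.02 and -5.33. In larvae they stood near the pool, at -0.14, -0.39 and 0.29.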
